A study of Mus musculus with 45 samples.

Results

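The p53 pathway and the BCL2 family meet at 10 genes that were followed here through the intestinal stem cells and organoids of Lgr5 mutant mice: the p53 targets Cdkn1a, Ccng1, Mdm2, Phlda3, Trp53inp1, Bax and Bbc3, and the anti-apoptotic genes Bcl2, Bcl2l1 and Mcl1. They were taken by gene symbol alone, and all 10 were found among the 52636 genes of both expression tables, 1 of sorted cells (15 libraries) and 1 of organoids (30 libraries).

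RNA was sequenced from GFP-positive cells sorted from the small intestine of Lgr5-DTReGFP mice, in which DNA for the diphtheria toxin receptor fused with eGFP interrupts the first exon of Lgr5, so that the allele makes no Lgr5. Heterozygous (HE) and homozygous (KO) pools at E16.5 came, by the labels, from 2 litters that each gave 1 pool of either genotype, each HE pool made of 7 or 8 embryos and each KO pool of 2 or 6. HE cells also came from 2 single embryos at E18.5 and from the duodenum and ileum of 2 mice aged 2 months. A second line, adult Lgr5-Cre/+ (HE) and Lgr5-Cre/flox (cKO) mice, received 2 mg of tamoxifen 48 hours before ileal cells positive for eGFP and RFP were sorted, 2 libraries labelled HE and 3 labelled cKO. In this line Cre is expressed from the Lgr5 locus and removes exon 16 of the floxed allele. Every sorted group, controls included, thus lacks at least 1 working Lgr5 allele. Organoids were grown from E17.5 Lgr5-DTReGFP embryos, 3 WT and 2 KO cultures at passage 4, each in Rspondin 1, 2 or 3 at 5 or 100 ng/ml. Rspondins are secreted ligands of the Lgr receptors that raise Wnt signalling.

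p53 is a transcription factor that accumulates in stressed cells and switches on genes that stop the cell cycle (Cdkn1a, which codes for the inhibitor p21), limit p53 itself (Mdm2, its ubiquitin ligase, and Ccng1, cyclin G1), dampen survival signalling (Phlda3, an inhibitor of Akt), link p53 to stress and autophagy (Trp53inp1), or start apoptosis (Bax and Bbc3, which codes for Puma). Puma frees Bax to open the outer mitochondrial membrane, and Bcl2, Bcl-xL (the product of Bcl2l1) and Mcl1 hold it shut. In the intestine, crypt cells are known for prompt p53-dependent apoptosis after irradiation. Each of these genes also answers to other inputs, so their RNA level is not a measure of p53 activity.

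The promoters of the p53 targets are shown because some of them hold a consensus p53 half-site close to the start. The RefSeq promoter table (GRCm38.p6) held 14 start sites for 9 of the 10 genes. Windows from 250 bases before to 50 after the start were searched on both strands, and 4 of the 14 held a p53 half-site, against 8.356% of 32851 promoters. The Tcf motif CTTTGAT was in 0 of the 14 and in 3.729% of all promoters. The 250 bases before the start follow, 5′ to 3′ on the gene's strand, for these 4 windows, with each half-site in capitals.
Cdkn1a (chr17:29090729-29090978, plus strand): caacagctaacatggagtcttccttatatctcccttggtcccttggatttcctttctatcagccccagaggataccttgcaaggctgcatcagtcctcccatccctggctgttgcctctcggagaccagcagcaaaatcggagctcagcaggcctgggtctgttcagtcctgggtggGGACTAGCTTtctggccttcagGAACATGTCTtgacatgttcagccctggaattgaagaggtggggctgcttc
Bax (chr7:45466899-45467148, minus strand): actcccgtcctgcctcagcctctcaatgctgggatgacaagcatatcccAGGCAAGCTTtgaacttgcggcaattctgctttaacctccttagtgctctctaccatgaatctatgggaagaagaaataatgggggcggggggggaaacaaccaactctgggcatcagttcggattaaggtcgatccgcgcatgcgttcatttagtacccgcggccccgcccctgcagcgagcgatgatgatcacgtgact
Mdm2 (chr10:117710759-117711008, minus strand): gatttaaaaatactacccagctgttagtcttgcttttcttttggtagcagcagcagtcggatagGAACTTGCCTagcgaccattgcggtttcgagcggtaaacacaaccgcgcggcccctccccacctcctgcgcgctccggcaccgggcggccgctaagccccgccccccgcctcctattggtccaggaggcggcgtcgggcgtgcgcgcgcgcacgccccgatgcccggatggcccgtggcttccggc
Ccng1 (chr11:40755287-40755536, minus strand): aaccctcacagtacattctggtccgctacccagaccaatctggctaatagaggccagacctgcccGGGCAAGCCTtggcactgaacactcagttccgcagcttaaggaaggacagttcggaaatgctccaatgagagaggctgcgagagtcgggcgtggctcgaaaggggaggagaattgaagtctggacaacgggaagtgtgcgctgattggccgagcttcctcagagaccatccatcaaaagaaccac
The Cdkn1a window shown carried 2 half-sites, 73 and 51 bases before its start, and the others 1 each, at -201 (Bax), -186 (Mdm2) and -185 (Ccng1). The window of the other Cdkn1a start (chr17:29093519-29093818, plus strand) held 0. Such a match describes the letters of a window and is not a bound site.

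Values are CPM, the reads on a gene scaled to the total on all genes. Sorted libraries held 1275949 to 9984682 reads on genes, with the E16.5 pools the shallowest (at most 2611302), and organoid libraries 18127666 to 33105000. Lgr5, the targeted gene, was lower in the KO than in the HE pools at E16.5 (51.65 to 64.75 against 104.25 to 125.1 CPM), and since reads are summed over the whole gene its level does not check the loss of exon 16 in cKO cells. For 2 of the 5 Cre libraries the label and the study's own dataset disagree: the library labelled HE 1 is listed there as cKO and the library labelled cKO 2 as HE, with equal values for 859 of 859 genes. In the organoids, the library of KO culture 2 in Rspondin 2 at 5 ng/ml had Lgr5 at 90.45 CPM, above the same culture at 100 ng/ml (75.0). The other cultures held 6.1 to 28.7 CPM at that low dose. Some results that rest on this library are also given without it, and the others include it. All 6 markers each of stem cells and epithelium were above 1 CPM in every sorted library. Summed markers of mesenchyme and red cells reached 815 to 1780 and 1058 to 1177 CPM at E16.5 in HE, but 181 to 496 and 308 to 491 in KO, and at most 82.4 and 54.7 at E18.5.

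Levels were compared between genes per kilobase of exon. In sorted cells Mcl1 stood highest at 47.2 CPM per kb (mean of 15 libraries) and Phlda3 lowest at 0.810, with Ccng1 (21), Mdm2 (12.7), Bax (10.7), Cdkn1a (9.11), Trp53inp1 (5.01), Bcl2l1 (3.93), Bcl2 (3.44) and Bbc3 (2.58) between them. Mcl1 exceeded Ccng1 in all 15 libraries, while Trp53inp1 exceeded Bcl2l1 in 8 and Bcl2l1 exceeded Bcl2 in 9, so these neighbours did not separate. In organoids Mcl1 again led at 56.2 CPM per kb, Ccng1 and Bax followed at 46.2 each, and Bcl2 was last at 2.72, below Phlda3 (7.34) in all 30 libraries. The kits differed between the tables, so levels were not tested across them. The p53 relatives Trp63 and Trp73 reached at most 2.05 and 1.25 CPM in sorted cells and 0.15 and 0.35 in organoids.

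**Figure D1:**
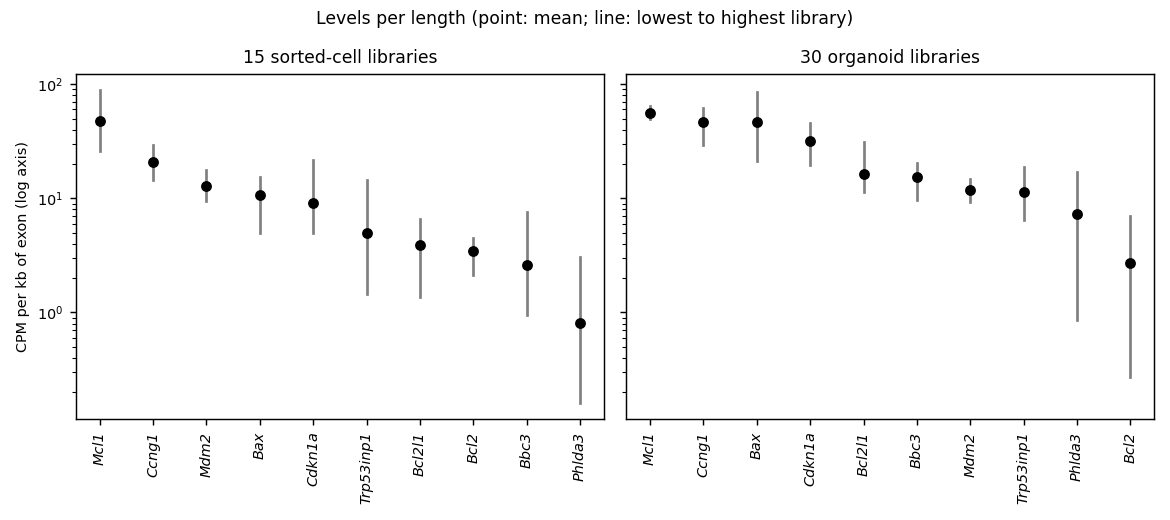
Level of each gene in CPM per kilobase of exon on a log axis, in 15 sorted-cell libraries (left) and 30 organoid libraries (right); points are means and lines run from the lowest to the highest library. Mcl1 is highest in both panels, and the long lines of Phlda3 and Bcl2 in organoids show how far these genes varied with the culture conditions.

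Loss of Lgr5 at E16.5 was compared in KO and HE pools. No gene of the 10 was called by limma (adjusted p under 0.1 and at least 1.5-fold), where 0.527% of the 17276 genes tested were called. Bax and Bbc3, the pro-apoptotic members, had an unadjusted p under 0.05, 2 of 10 genes, as did 2354 of the 17276 genes tested. Bax (ENSMUSG00000003873, chromosome 7, 45461697 to 45466898) was at 7.85 and 11.1 CPM in HE against 23.4 and 23.85 in KO (log2 fold change 1.25; SE, the standard error, 0.30; limma adjusted p = 0.129). The 2 KO pools lay close together and above both HE pools. With litter as a block, since the labels give same-numbered pools the same litter, Bax was called (limma adjusted p = 0.0121), as it was by edgeR on recovered reads (adjusted p = 0.0981), whereas DESeq2 called 0 of the 10. Bax shares 192 exon bases (12.2% of its exon length) with Gm45808 on the same strand, and reads there cannot be assigned to 1 of them.
Bbc3 moved the other way. It was at 8.65 and 4.05 CPM in HE and at 2.3 and 2.0 in KO pools, and both KO pools were below both HE pools (log2 fold change -1.15, SE 0.49, limma adjusted p = 0.341). The anti-apoptotic Bcl2 (30.6 and 33.8 in HE, 41.4 and 36.55 in KO) and Bcl2l1 (6.3 and 8.6 in HE, 9.6 and 11.15 in KO) were above HE in both KO pools without passing the test, and the groups overlapped for Mcl1. Of the p53 targets, Cdkn1a was at 23.55 and 23.75 CPM in HE and 29.15 and 29.0 in KO (log2 fold change 0.29, limma adjusted p = 0.595). Ccng1 was below HE in both KO pools (74.3 and 69.9 against 79.95 and 86.3, limma adjusted p = 0.601), and Mdm2 above HE (79.3 and 71.9 against 70.55 and 68.65, limma adjusted p = 0.789). With 2 pools a genotype, such separation can arise with no difference between the genotypes, and its share over all genes was not counted. Phlda3 rested on 3 to 11 reads a pool. Trp53 itself was 58.0 and 59.55 CPM in HE and 75.1 and 78.65 in KO (log2 fold change 0.38, limma adjusted p = 0.341). Over the same comparison, markers of mesenchyme, red cells, leukocytes and enterocytes (221 to 286 against 601 to 891 CPM) were lower and those of Paneth cells (132 to 253 against 75.3 to 87.1) and stem cells (730 to 743 against 546 to 562) higher in the KO pools, and their part in these differences was not tested. The 4 related lists (p53 regulators, other p53 targets, other BCL2 family genes, apoptosome and caspases) had 0 calls by limma. In bulk libraries, fewer cells of a type and less RNA per cell cannot be told apart.

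Between E16.5 and E18.5, 5 of the 10 genes were called in HE cells, 2 higher and 3 lower at E18.5, against 49.6% of 18408 genes tested, so their share was that of all genes. The lowest adjusted p was that of the anti-apoptotic Mcl1 (ENSMUSG00000038612, chromosome 3, 95658788 to 95663176), which fell from 305.7 and 244.65 to 120.15 and 105.8 CPM, a log2 fold change of -1.27 (SE 0.14, limma adjusted p = 0.00118). Both embryos at E18.5 were below both E16.5 pools. Bcl2l1 rose in the same cells, from 6.3 and 8.6 to 20.3 and 16.65 CPM (log2 fold change 1.21, SE 0.27, limma adjusted p = 0.0129). Bcl2 was at 30.6 and 33.8 CPM and then at 29.75 and 27.2 (log2 fold change -0.17, limma adjusted p = 0.42). Of the 3 anti-apoptotic genes 1 thus fell, 1 rose and 1 was not called.
Trp53inp1 rose from 14.15 and 12.65 to 30.45 and 26.3 CPM (log2 fold change 1.03, SE 0.20, limma adjusted p = 0.0081). Bbc3 fell from 8.65 and 4.05 to 2.35 and 2.2 CPM (log2 fold change -1.09, SE 0.41, limma adjusted p = 0.0698). The call was kept in 6 of 12 alternatives, with log2 fold changes from -1.60 to -0.63, and was lost with DESeq2, with no filter, at an FDR of 0.05 and without HE pool 1. It rested on 19 reads at E16.5 and 20 at E18.5, a ratio of depth-scaled reads of 0.385 with a 95% exact counting interval of 0.195 to 0.763. Phlda3 fell from 4.75 and 1.55 to 0.5 and 0.45 CPM, the largest fitted change of the 5 (log2 fold change -1.38, SE 0.45, limma adjusted p = 0.0458), but on 9 and 4 reads in all, a ratio of 0.163 with a 95% exact counting interval of 0.0366 to 0.583 that covers counting error only. Bax was at 13.15 and 16.9 CPM at E18.5, above both E16.5 HE pools (log2 fold change 0.62, limma adjusted p = 0.115), and Mdm2 at 53.55 and 54.8, below both (-0.36, limma adjusted p = 0.0505, under the 1.5-fold limit). Cdkn1a (19.4 and 24.35) overlapped with E16.5, and Ccng1 (82.6 and 75.15) did too. All 5 calls were lost when either E18.5 embryo was left out, which left a single embryo in that group. Trp53 rose (log2 fold change 0.79, limma adjusted p = 0.00287), as did its inhibitor Mdm4 (0.72, limma adjusted p = 0.00352). The falls in mesenchyme and red cell markers given above ran over the same comparison, and their part was not tested.

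Among the relatives of the 10 genes at this step, 3 of 7 tested p53 regulators were called higher and 0 lower, 6 of 27 other p53 targets higher and 4 lower, 1 of 10 other BCL2 family genes higher and 4 lower, and 3 of 16 apoptosome and caspase genes higher and 3 lower. Over all genes, 5576 of 18408 were called higher and 3562 lower. The median log2 fold changes of the 4 lists were 0.57, -0.05, -0.45 and 0.11, against 0.23 over all genes tested. The strongest of these were Bak1, an effector like Bax (log2 fold change 2.03, limma adjusted p = 0.000624), and the leukocyte-expressed Bcl2a1b (-3.51, limma adjusted p = 0.00272) and Bcl2a1d (-2.11, limma adjusted p = 0.018), near-identical genes that counting can split.

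In adult HE cells, with the duodenum and ileum of each mouse averaged, 2 of 9 genes tested were called higher than at E18.5 and 0 lower, against 25.6% of 19554 genes. Trp53inp1 rose again (ENSMUSG00000028211, chromosome 4, 11156431 to 11174379). It went from 30.45 and 26.3 CPM to 69.4 and 63.75 in the duodenum and 58.9 and 93.4 in the ileum, a log2 fold change of 1.28 (SE 0.14, limma adjusted p = 0.000226). All 4 adult libraries were above both embryos. The call was kept in 17 of 17 alternatives, some of which took the 2 regions of a mouse as separate samples. It was thus called higher in both steps from E16.5 to the adult in the Lgr5-DTReGFP line. The 5 adult ileum libraries of the Lgr5-Cre line, not part of this test, held 9.45 to 27.55 CPM, and those labelled HE (11.4 and 9.45) were below both E16.5 pools.
Cdkn1a (ENSMUSG00000023067, chromosome 17, 29090976 to 29100727) was called higher as well (log2 fold change 0.72, SE 0.19, limma adjusted p = 0.0189), but this came from 1 region. It stood at 55.3 and 77.45 CPM in the duodenum and at 17.55 and 23.15 in the ileum, where the E18.5 embryos held 19.4 and 24.35. With the ileum alone the log2 fold change was -0.10. Both edgeR and DESeq2, which took the 4 adult libraries as separate samples, called Trp53inp1 without Cdkn1a. Bax, Bbc3, Mdm2, Ccng1, Bcl2, Bcl2l1 and Mcl1 had log2 fold changes from -0.30 to 0.18 and were not called, and Phlda3 was too low to test (0.25 to 0.55 CPM, 1 to 3 reads). Trp53 was lower (log2 fold change -0.45, limma adjusted p = 0.0298) but under the 1.5-fold limit. Of the related genes, 5 of 29 other p53 targets were called higher and 4 lower, with a median of 0.06 against -0.04 over all genes, 1 of 8 other BCL2 family genes higher and 0 lower, 1 of 16 apoptosome and caspase genes each way, and 0 of 7 p53 regulators higher and 1 lower. Over all genes, 2687 of 19554 were called higher and 2315 lower. Of the called genes in these lists, Tap1, a peptide transporter of antigen presentation, rose most (2.63, limma adjusted p = 2.13e-06). Paneth cell markers were 10242 to 24243 CPM in adults and 107 to 115 at E18.5, leukocyte markers 2253 to 4169 and 22.8 to 30.4, and their part was not tested. Of the 8 leukocyte markers, 6 to 8 were above 1 CPM in adults and 6 to 7 at E18.5, so their sum does not show how many of them rose.

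Cdkn1a was the gene that differed by gut region. Between ileum and duodenum of the same 2 mice, 1 of 9 genes tested was called, against 6.88% of 18608 genes, and it was Cdkn1a, lower in the ileum (log2 fold change -1.65, SE 0.23, limma adjusted p = 0.0113). Its value in the ileum was below that in the duodenum in both mice. The next differences were those of Bcl2 (29.45 and 19.35 CPM in duodenum, 37.95 and 29.55 in ileum, log2 fold change 0.47, limma adjusted p = 0.433) and Bbc3 (2.7 and 3.85 against 2.45 and 2.1, -0.37, limma adjusted p = 0.644). With the mouse as a block the Cdkn1a call held, and leaving out any 1 of the 4 libraries ended it, with 1 library left in a region. Of 29 other p53 targets, 4 were called lower in the ileum and 0 higher, among them Eda2r, a death receptor of the TNF family (log2 fold change -2.32, limma adjusted p = 0.0102), and Gadd45a, a growth arrest gene (-1.50, limma adjusted p = 0.0223). Casp6, an executioner caspase, was also lower (-1.41, limma adjusted p = 0.0146), the only called gene of 16 apoptosome and caspase genes. Over all genes, 417 of 18608 were called higher in the ileum and 863 lower. The median of the other p53 targets was -0.08, and 0.03 over all genes. Enterocyte markers were higher in the duodenum (310 to 472 CPM) than in the ileum (63.9 to 75.9), and their part in these differences was not tested.

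**Figure D2:**
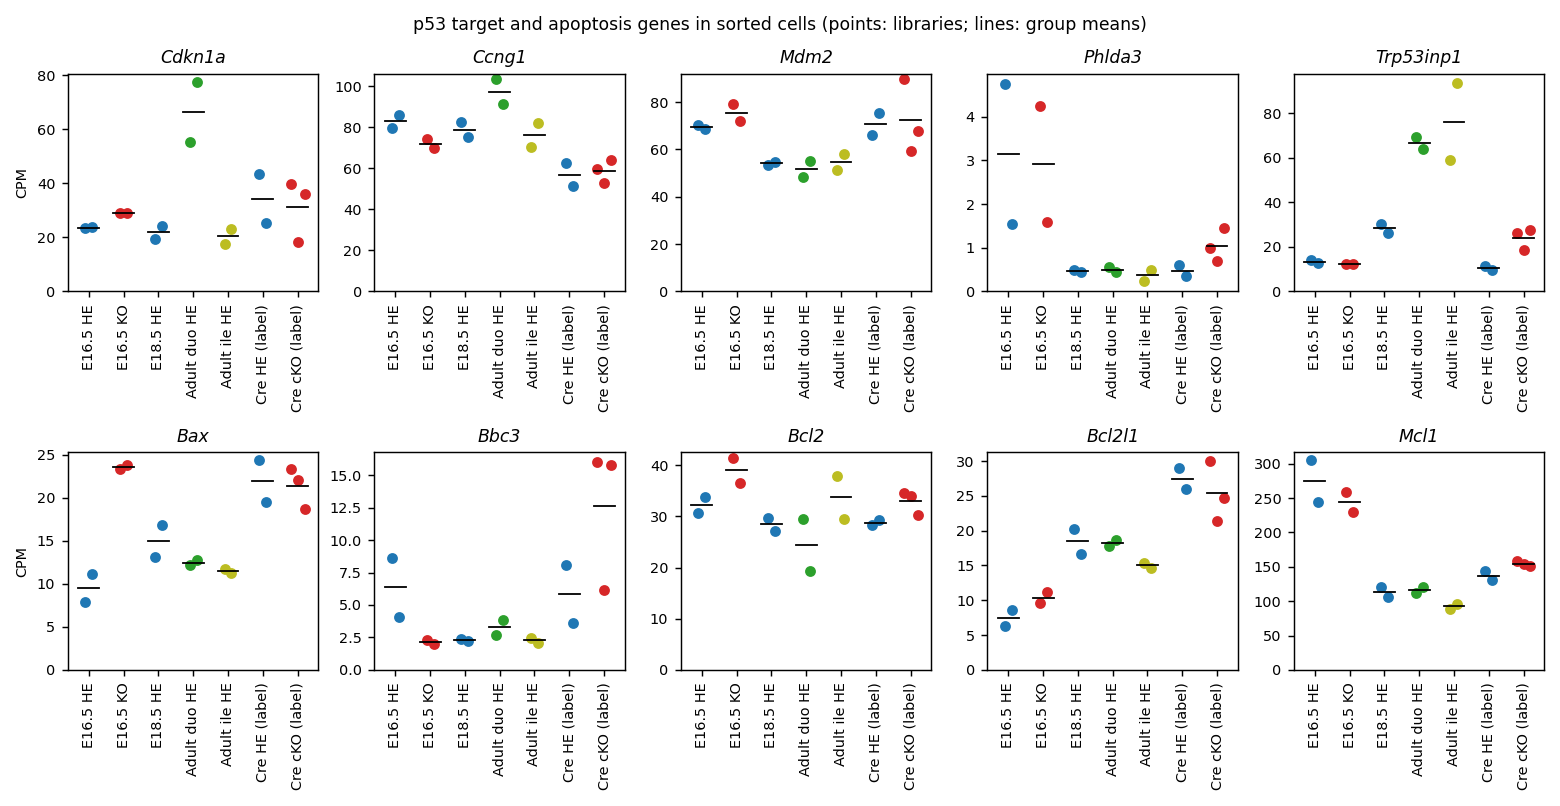
CPM of the 10 genes in each sorted-cell library (points) with the group mean (line), for E16.5 HE and KO pools, E18.5 embryos, adult duodenum (duo) and ileum (ile), and adult ileum after tamoxifen by the labelled genotype. Bax is above 23 CPM in both E16.5 KO pools and at most 11.1 in the HE pools, Mcl1 is lower at E18.5 than at E16.5, Trp53inp1 is highest in the adult DTReGFP libraries but at most 27.55 CPM in the adult Cre libraries, and Cdkn1a is highest in the 2 duodenum libraries.

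Acute loss of Lgr5 in the adult ileum was compared by the labelled genotype first. No gene of the 10 was called by limma between 3 cKO and 2 HE libraries, nor by edgeR or DESeq2, against 0.0504% of 19848 genes (TMM scaling moved the median of all genes by -0.13). An unadjusted p under 0.05 was reached by 902 of all genes and by 1 of the 10. This was Trp53inp1, at 11.4 and 9.45 CPM in the libraries labelled HE and at 26.25, 18.75 and 27.55 in those labelled cKO (log2 fold change 1.13, SE 0.23, limma adjusted p = 0.864). All cKO-labelled libraries were above both HE-labelled ones. Bbc3 was at 8.1 and 3.6 CPM in HE-labelled and at 16.05, 6.15 and 15.75 in cKO-labelled libraries (log2 fold change 0.97, limma adjusted p = 0.864), and Cdkn1a at 43.4 and 25.3 and at 39.8, 18.4 and 35.9 (-0.15). These groups overlapped.
With the genotypes of the study's dataset, 2 genes were called, against 3.92% of all genes. Depth moved with this grouping: the cKO libraries held 8122493 to 9984682 reads and 32121 to 42154 detected genes, the HE libraries 3084694 and 5717575 reads and 22675 and 24944 genes, and the part of depth was not tested. Cdkn1a was then higher in cKO, at 43.4, 39.8 and 35.9 CPM against 25.3 and 18.4 in HE (log2 fold change 0.85, SE 0.18, limma adjusted p = 0.0626), the opposite sign to that by label. Bbc3 was higher in cKO too, at 8.1, 16.05 and 15.75 against 3.6 and 6.15 (1.26, SE 0.34, limma adjusted p = 0.0985). Trp53inp1 then overlapped between the genotypes (0.57, limma adjusted p = 0.422). Without the 2 libraries in conflict, the single library HE 2 (3084694 reads) was set against cKO 1 and cKO 3 (8122493 and 9984682 reads). The differences were then 1.88 for Bbc3, 1.42 for Trp53inp1 and 0.56 for Cdkn1a, with no HE replicate, and the part of depth was not tested. The sign for Bbc3 and Trp53inp1 was the same in all 3 versions, but these share HE 2, cKO 1 and cKO 3 and are not independent. Of the remaining genes, Phlda3 was at 0.35 to 1.45 CPM on 1 to 14 reads. Bax lay between 18.75 and 24.45 CPM, Bcl2l1 between 21.35 and 30.05, Bcl2 between 28.3 and 34.6 and Mcl1 between 130.65 and 158.35 over the 5 libraries.

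**Figure D3:**
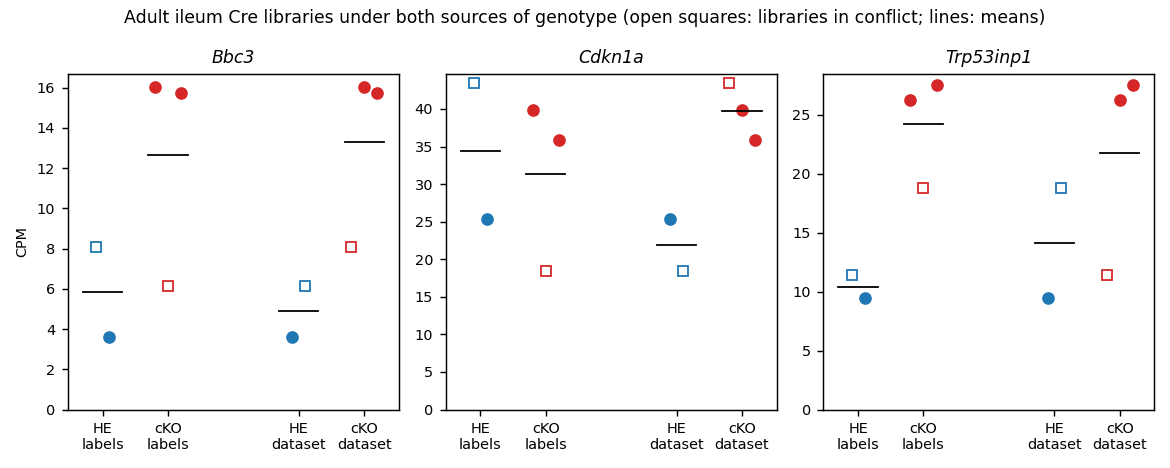
CPM of Bbc3, Cdkn1a and Trp53inp1 in the 5 adult ileum libraries after tamoxifen, grouped by GEO label (left pair) and by the genotype in the study's dataset (right pair), with group means as lines. Open squares mark the 2 libraries whose genotypes conflict, and the order of the Cdkn1a means turns over with them.

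Organoids were compared between the doses of each Rspondin. Of 30 pairs of gene and ligand in WT cultures, 14 were called between 100 and 5 ng/ml (limma adjusted p under 0.05), 11 higher and 3 lower at the high dose, against 46.1% over all genes, and in KO cultures 9 of 30, 8 higher and 1 lower, against 24.8%. These shares were those of all genes. By ligand the WT counts were 6 of 10 in Rspondin 1 (53.4% of all genes), 4 in Rspondin 2 (33.4%) and 4 in Rspondin 3 (51.4%). The KO counts were 5 (29.8%), 0 (0.115%) and 4 (44.5%). The Rspondin 2 contrast in KO includes the library that stands apart, and there 3 of the 10 and 1327 of 19130 genes had an unadjusted p under 0.05. The median of all genes was itself above 0 in the dose contrasts, and TMM scaling, which recentres it, moved it by -0.19 to -0.28 in all but the Rspondin 2 contrast in KO (-0.08). With TMM, 8 higher and 5 lower pairs were called in WT and 5 and 3 in KO, so each gene is given on both scales.

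Bcl2, the founding inhibitor of apoptosis, had with Phlda3 the largest called changes (ENSMUSG00000057329, chromosome 1, 106538178 to 106714274). In WT cultures 5, 10 and 30 it went from 10.7, 8.5 and 9.55 CPM at 5 ng/ml to 54.85, 42.1 and 43.35 at 100 ng/ml of Rspondin 1 (log2 fold change 2.17, SE 0.29, limma adjusted p = 3.8e-06). In Rspondin 3 it went from 3.45, 5.4 and 4.35 to 26.7, 24.8 and 21.9 CPM (2.25, SE 0.29, limma adjusted p = 1.38e-06). In Rspondin 2 it went from 21.05, 16.9 and 14.55 to 39.7, 51.25 and 64.2 CPM (1.5, SE 0.29, limma adjusted p = 0.000711). No low-dose WT library reached a high-dose one of the same ligand. KO cultures 2 and 7 rose in Rspondin 1 from 16.9 and 7.15 to 42.25 and 35.8 CPM (1.72, limma adjusted p = 0.00126) and in Rspondin 3 from 4.85 and 2.5 to 30.6 and 16.55 (2.38, limma adjusted p = 1.5e-05). In Rspondin 2, KO culture 2 went from 45.35 to 34.6 CPM and culture 7 from 19.5 to 28.05 (0.06, limma adjusted p = 0.997), and without the library that stands apart the estimate was 0.65 (limma adjusted p = 0.74). Bcl2 was called in 5 of 6 contrasts on both scales. It shares 558 exon bases (6.09%) with D630008O14Rik on the opposite strand.

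Phlda3, the Akt inhibitor, was the p53 target that rose most with dose, in 15 of 15 pairs of libraries of 1 culture and ligand. In WT cultures 5, 10 and 30 it went from 2.2, 1.5 and 1.35 CPM to 14.55, 15.85 and 9.35 in Rspondin 3 (log2 fold change 2.39, SE 0.29, limma adjusted p = 6.4e-07). In Rspondin 1 it went from 3.55, 6.2 and 3.9 to 13.9, 21.25 and 17.7 CPM (1.76, limma adjusted p = 4.16e-05), and in Rspondin 2 from 8.75, 7.9 and 6.65 to 18.6, 20.35 and 11.8 (1.00, limma adjusted p = 0.0126). The doses did not overlap within a ligand. In KO cultures it rose by 2.21 in Rspondin 1 and 2.04 in Rspondin 3 (limma adjusted p = 0.00019 and 9.01e-05), and by 0.83 in Rspondin 2 (limma adjusted p = 0.642). Without the library that stands apart, Phlda3 rose by 0.68 in Rspondin 2 in KO. Its calls, like those of Bcl2, numbered 5 of 6 on both scales.

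Bax was higher at 100 than at 5 ng/ml in 15 of 15 pairs as well, by less. In Rspondin 3 WT cultures 5, 10 and 30 went from 45.9, 33.2 and 36.85 to 95.2, 81.2 and 67.7 CPM (log2 fold change 1.05, SE 0.20, limma adjusted p = 0.000174), and KO cultures 2 and 7 from 41.25 and 42.9 to 86.6 and 85.5 (1.02, limma adjusted p = 0.00221). Both contrasts were called on both scales. In Rspondin 1 the change was 0.70 in WT (limma adjusted p = 0.00646) and 0.75 in KO (limma adjusted p = 0.028), and neither call held with TMM. In Rspondin 2 it was 0.42 and 0.41 and was not called. Bbc3 was called in 1 contrast, Rspondin 1 in WT, from 28.4, 32.05 and 28.55 to 40.05, 41.7 and 37.0 CPM (0.40, limma adjusted p = 0.0209), and in 0 of 6 with TMM. The pro-apoptotic Bax and the anti-apoptotic Bcl2 thus rose together in the 4 contrasts in which Bax was called.

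Ccng1 followed Bax by contrast, called in Rspondin 1 and 3 in both genotypes with log2 fold changes of 0.55 to 0.89. In Rspondin 3 WT cultures 5, 10 and 30 went from 105.15, 102.1 and 106.55 to 219.2, 189.75 and 175.6 CPM (0.89, SE 0.15, limma adjusted p = 2.57e-05), and this was the 1 contrast that stayed called with TMM. In Rspondin 2 its WT values overlapped between the doses (168.7, 188.1 and 166.7 against 189.15, 148.8 and 150.55).
Cdkn1a, the best known p53 target, did not follow them. It was lower at the high dose in 11 of 15 pairs, and the call was in Rspondin 2 in WT, from 120.65, 152.55 and 148.35 to 98.35, 100.5 and 70.2 CPM (-0.65, SE 0.22, limma adjusted p = 0.029). The 3 high-dose libraries were below the 3 low-dose ones, and the call was kept with TMM but lost when any 1 WT culture was left out.
Trp53inp1 was called lower at 100 ng/ml in 3 contrasts, by 0.45 and 0.42 in Rspondin 1 and 2 in WT and by 0.50 in Rspondin 1 in KO, and in 4 with TMM. In Rspondin 1, WT cultures 5 and 30 fell from 105.25 and 111.85 to 65.15 and 72.7 CPM, while culture 10 was at 77.85 and 75.2. Mdm2 was in 0 of 6 contrasts past the threshold with no further scaling and lower in 2, both of Rspondin 3, with TMM (-0.36 and -0.35). With the culture as a block it was called higher in Rspondin 2 in WT (limma adjusted p = 0.0155). With the same block Bbc3 was also called higher in Rspondin 3 in WT (limma adjusted p = 0.0379) and Rspondin 1 in KO (limma adjusted p = 0.034). With TMM and no block, the log2 fold changes in these contrasts were 0.02 for Mdm2 and -0.01 and 0.10 for Bbc3, and none was called.

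Mcl1 and Bcl2l1, the other anti-apoptotic genes, were not called in any dose contrast. Mcl1 ranged from 170.05 to 217.95 CPM over all 30 libraries, the narrowest spread of the 10 (coefficient of variation 5.65%), and with TMM it was lower in 1 contrast (Rspondin 1 in WT, -0.43, limma adjusted p = 0.00421). Bcl2l1 differed by culture instead. It was at 68.6 to 141.7 CPM in KO culture 7 and at 51.7 to 70.4 in KO culture 2, and at 56.55 to 86.85 in the WT cultures. Cdkn1a was also high in culture 7, with a median of 145 CPM against 86.1 in culture 2.

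**Figure D4:**
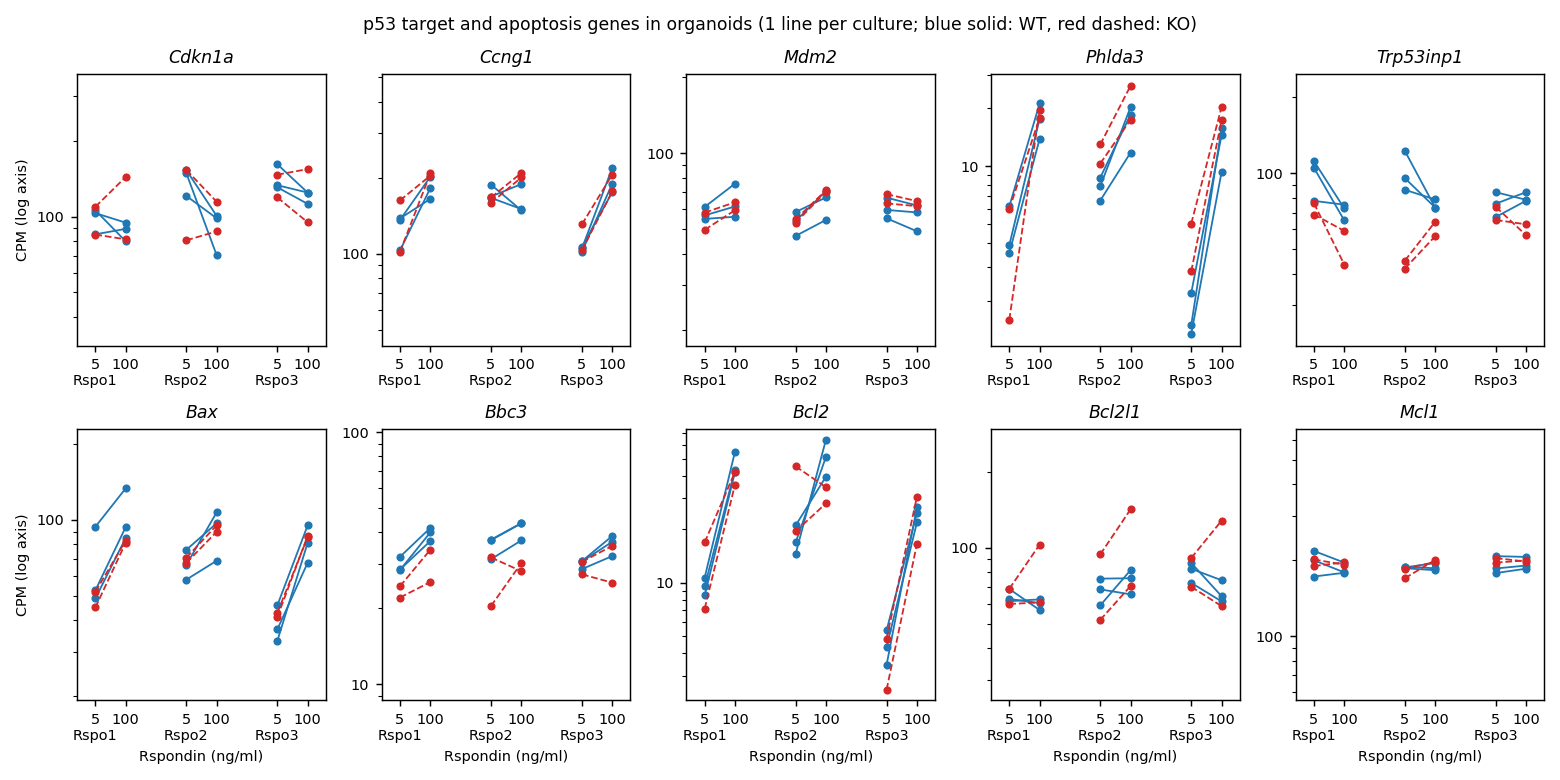
CPM of the 10 genes in 30 organoid libraries on log axes, 1 line for each culture from 5 to 100 ng/ml of Rspondin 1, 2 or 3 (blue solid, 3 WT cultures; red dashed, 2 KO cultures). Bcl2 rises in 14 of 15 lines and Bax and Phlda3 in all 15, Mcl1 is flat, and Trp53inp1 lies lowest in the KO cultures in Rspondin 2 at 5 ng/ml.

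**Figure D5:**
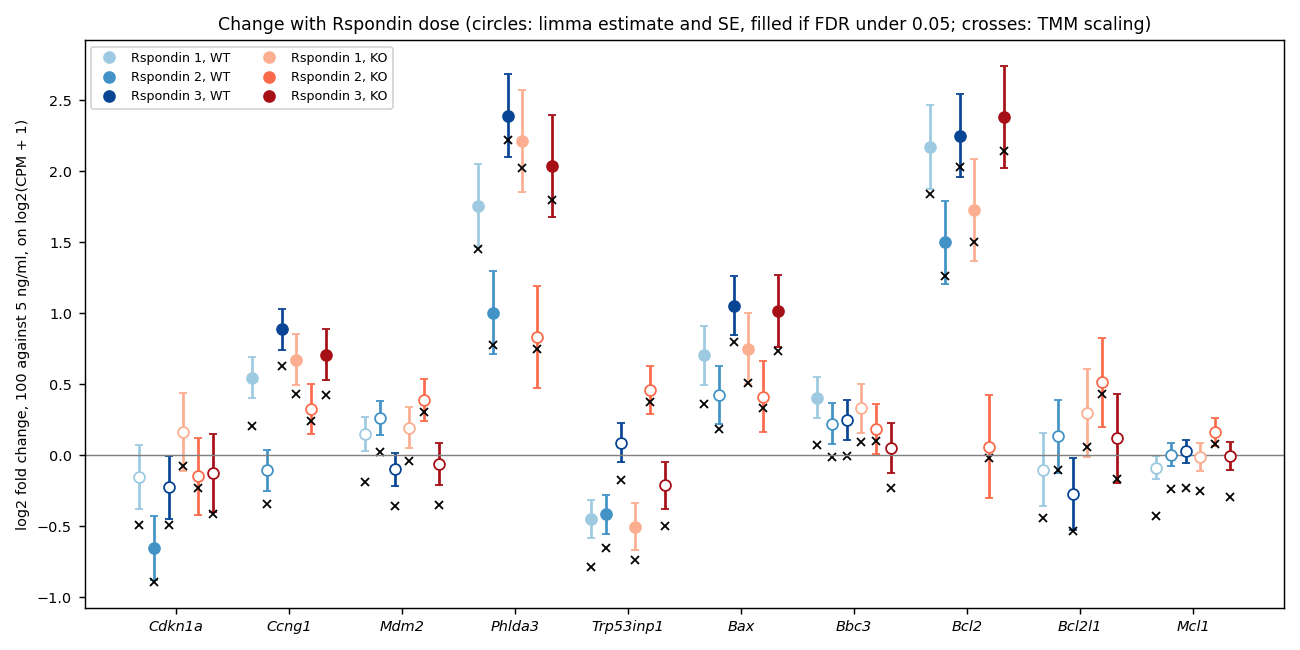
Log2 fold change of each gene between 100 and 5 ng/ml for 3 ligands and 2 genotypes (circles, limma estimate with its standard error, filled where the adjusted p is under 0.05; crosses, the estimate with TMM scaling). The crosses lie below the circles, and Bcl2 and Phlda3 stay above 0 on both scales in the 5 contrasts in which they were called.

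The same contrasts moved markers of cell state. In WT cultures the summed proliferation markers were 182 to 296 CPM in Rspondin 3 at 5 ng/ml and 1161 to 1222 at 100 ng/ml, and 516 to 697 against 1051 to 1499 in Rspondin 1. In Rspondin 2 they were 970.5 to 1194 and 1011 to 1290, an overlap. For each of the 3 ligands in WT, stem cell markers were higher and enterocyte markers lower at the high dose with no overlap, for example 216 to 274 against 1412 to 2079 CPM and 4143 to 4433 against 1697 to 1812 CPM in Rspondin 1. Their part in the changes of the 10 genes was not tested.
Trp53 rose with dose in 5 of 6 contrasts, by 0.63 to 1.45 on the log2 scale, and was at 0.14 in Rspondin 2 in KO (limma adjusted p = 0.96). The latter contrast includes the library that stands apart: Trp53 changed by 0.50 in KO culture 7 and by -0.22 in KO culture 2. Of the 8 tested p53 regulators, 5 to 7 were called higher in each of those 5 contrasts and 0 lower, where 29.8% to 53.4% of all genes were called in either direction and more of them higher than lower (7830 and 2394 of 19130 in Rspondin 1 in WT). The medians of this list were 0.46 to 0.98, against 0.17 to 0.28 over all genes. Chek1, the checkpoint kinase, was among the 3 strongest of the listed genes in all 5 (0.93 to 2.34). Of 29 other p53 targets tested, 12 were higher and 2 lower in Rspondin 1 in WT, 3 and 4 in Rspondin 2, and 12 and 5 in Rspondin 3, with medians of 0.34, 0.09 and 0.31 against 0.28, 0.17 and 0.24 over all genes. Gdf15, a stress-induced cytokine of the TGF-β family, rose most in Rspondin 3 (2.88 in WT and 3.05 in KO, limma adjusted p = 1.81e-07 and 2.4e-06). Of 16 apoptosome and caspase genes, 4 were higher and 7 lower in Rspondin 1 in WT, with a median of -0.31, and 4 and 7 in Rspondin 3, with a median of -0.20. Other BCL2 family genes were split, 3 higher and 2 lower of 8 in both. In Rspondin 2 in KO none of the 4 lists had a call by limma, where 22 of all genes were called.

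Genotype was tested at each ligand and dose. Of 60 pairs of gene and condition, 1 was called between KO and WT organoids, against 1.19% over all genes. An unadjusted p under 0.05 was reached by 12 of the 60, and by 1033 to 4232 of 19130 genes in each condition. The call was Trp53inp1 in Rspondin 2 at 5 ng/ml. KO cultures 2 and 7 held 45.15 and 42.0 CPM and WT cultures 5, 10 and 30 held 86.1, 95.75 and 122.65 (log2 fold change -1.19, SE 0.15, limma adjusted p = 0.000101). Both KO values were below all 3 WT values, and the call was kept in 11 of 11 alternatives, including the one without the library that stands apart (-1.24, limma adjusted p = 0.00315). Trp53inp1 was below WT in all 6 conditions (-1.19 to -0.12), as was Bbc3 (-0.49 to -0.05), whose values passed no adjusted threshold and were lowest in KO culture 2 (20.45 to 30.25 CPM). In that condition 4.54% of all genes were called, 608 of 19130 higher and 260 lower in KO. Of 29 other p53 targets 2 were called lower and 0 higher, in either direction a share near that of all genes. They were Gadd45a (-1.10, limma adjusted p = 0.0129) and Sesn2, which restrains mTOR signalling (-0.77, limma adjusted p = 0.00274). Chek1 was higher (0.92, limma adjusted p = 0.025), and so was Trp53 (0.53, limma adjusted p = 0.0471). Summed markers there were higher in KO for Paneth cells (654 to 676 against 249 to 284 CPM), stem cells (840 to 2292 against 189 to 630) and proliferation (1244 to 1537 against 970.5 to 1194), and their part was not tested. The values for these markers and for the listed genes include the library that stands apart.
Calls for other genes rested on a single KO culture. Without KO culture 7, Bbc3 (-0.76), Cdkn1a (-0.79) and Bcl2 (1.34) were also called in Rspondin 2 at 5 ng/ml. The only KO library left there was the one that stands apart. Without that library instead, the differences from WT were -0.14, 0.13 and 0.16. Without KO culture 2, Bcl2l1 was called higher in KO at 100 ng/ml of each ligand (0.77, 0.93 and 0.94).

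Whether the dose effect differed between the genotypes was tested with an interaction term. No gene of the 10 was called by limma in 30 pairs, against 0.146% over all genes. Of these pairs 2 had an unadjusted p under 0.05, both in Rspondin 2. There 2438 of 19130 genes did, and TMM moved the median of all genes by 0.13. Trp53inp1 fell with dose in WT and was at 45.15 and 42.0 CPM at 5 ng/ml and 64.4 and 56.45 at 100 ng/ml in KO, a difference of dose effects of 0.88 (SE 0.22, limma adjusted p = 0.0735). For Bcl2 the difference was -1.44 (SE 0.46, limma adjusted p = 0.184). With culture as a block both were called (limma adjusted p = 0.0179 and 0.015), and without the library of KO culture 2 that stands apart neither was (0.93, limma adjusted p = 0.29, and -0.85, limma adjusted p = 0.723, with no block).

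The 3 Rspondins were compared within genotype and dose. Of 80 pairs of gene and contrast with Rspondin 1, 8 were called, all at 5 ng/ml, against 9.19% over all genes. These contrasts share the Rspondin 1 libraries, and TMM moved the median of all genes by over 0.1 in 2 of them (0.16 for Rspondin 3 at 100 ng/ml in WT, -0.15 for Rspondin 2 at 5 ng/ml in KO). In WT, Rspondin 3 gave lower Bax (-0.69, limma adjusted p = 0.0246), Bcl2 (-0.98, limma adjusted p = 0.0254) and Phlda3 (-1.03, limma adjusted p = 0.0195). Rspondin 2 gave higher Ccng1 (0.48, limma adjusted p = 0.0217). Of 11 alternatives, the Bax call was kept in 6, that of Bcl2 in 7, of Phlda3 in 9 and of Ccng1 in 7. The Ccng1 call was lost with TMM (0.39, limma adjusted p = 0.0838). In KO, Rspondin 3 gave lower Bcl2 (-1.42, limma adjusted p = 0.00868), and Rspondin 2 gave higher Bcl2 (1.35, limma adjusted p = 0.0127) and Phlda3 (1.56, limma adjusted p = 0.00555) and lower Trp53inp1 (-0.72, limma adjusted p = 0.00596). At 5 ng/ml, Bcl2 was thus ordered from Rspondin 3 (2.5 to 5.4 CPM) over Rspondin 1 (7.15 to 16.9) to Rspondin 2 (14.55 to 45.35) across the 5 cultures, with no culture out of order. Without the library that stands apart, the KO call for Bcl2 in Rspondin 2 was lost (0.76, limma adjusted p = 0.242) and those for Phlda3 and Trp53inp1 were kept. With culture as a block 16 of the 80 were called, 2 of them at 100 ng/ml (Rspondin 3 against 1 in WT, Cdkn1a 0.45 and Bcl2 -0.90, limma adjusted p = 0.0263 and 0.011), 4 of the 8 added ones of Cdkn1a (for example higher in Rspondin 2 and 3 than in 1 at 5 ng/ml in WT, by 0.51 and 0.53, limma adjusted p = 0.00379 and 0.00428).

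Across the 30 organoid libraries the 10 genes did not move as 1 group. On log2(CPM + 1), Pearson's r was 0.80 between Bax and Bcl2, 0.91 between Bax and Phlda3 and 0.85 between Bcl2 and Phlda3, and Cdkn1a was at -0.36, -0.56 and -0.28 with these 3. With Lgr5, r was 0.97 for Bcl2, 0.89 for Phlda3, 0.85 for Bax, -0.51 for Cdkn1a and -0.24 for Mcl1. With Trp53 it was 0.94 for Bcl2, 0.90 for Phlda3, 0.83 for Ccng1, 0.15 for Mdm2, -0.42 for Trp53inp1 and -0.44 for Cdkn1a. With the proliferation gene Mki67 it was 0.87 for Bcl2, 0.83 for Ccng1, 0.78 for Phlda3, 0.74 for Bax and -0.43 for Cdkn1a. The libraries share cultures and doses, so these values describe the table and carry no test. Among all genes of at least 5 CPM on average, those most like Bcl2 were Eif2ak4 (r = 0.987), Qsox2 (0.985) and Chd6 (0.984), and those most like Phlda3 were Luc7l, Pvt1 and Inf2 (0.96 each). Bax was most like the overlapping Gm45808 (0.996), then Hdhd5 and Erp29 (0.95 each). For Ccng1 they were Ccdc127, Ddias and Tgs1 (0.90 to 0.93), for Cdkn1a Crybg2, Ick and Stat6 (0.87 to 0.88), and for Trp53inp1 Ubl3, Tmem64 and Vegfc (0.80 to 0.87). Bcl2l1 was most like Ahnak, Sema4b and Ier3 (0.87 to 0.91), Mdm2 like Gm37621, Gm19325 and Gm43336 (0.84 to 0.89), Bbc3 like Ermard, Rnf166 and Gm38020 (0.78 to 0.79), and Mcl1 like Gm17484, Bag4 and Arfgef1 (0.71 to 0.73).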

How the data were processed

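RNA from 15 sorted-cell and 30 organoid libraries was analysed. The authors trimmed reads with Trimmomatic 0.36, mapped them to GRCm38 with STAR 2.5.3a, counted them on Ensembl genes with HTSeq 0.9.1 and deposited CPM, rounded up to the next 0.05. Ovation SoLo libraries (sorted cells) and rRNA-depleted NEBNext libraries (organoids) were kept apart. The members and lists were chosen with earlier results of these data known.

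Values were tested as log2(CPM + 1), which understates changes of low genes, with limma 3.58.1 in R 4.3.3 (lmFit, eBayes with trend) over all genes that reached 1 CPM in 2 or more libraries (organoids entered 1 fit of 12 groups), and p was adjusted by Benjamini-Hochberg over all genes of a contrast. The call needed an FDR of 0.1 with a 1.5-fold change in sorted cells, and an FDR of 0.05 in organoids. Depth and read numbers were recovered from the spacing of low CPM, and edgeR 4.0.16 (quasi-likelihood) and DESeq2 1.42.0 were run on recovered reads as alternatives. Whole reads were established for the E16.5 pools. In the other sorted libraries the same steps were used with less certainty, so their read numbers, edgeR and DESeq2 values are approximate. In sorted libraries 1 read was worth 0.100 to 0.784 CPM. The labels do not say that organoid libraries of a culture were grown separately, so p-values measure the spread between these libraries.

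The genes named are the 10 members, Trp53, Mdm4, Lgr5, Mki67, up to 3 called genes of the 4 lists per comparison with the largest change, and the 3 genes most correlated with each member. Lists hold 10 p53 regulators, 31 other p53 targets, 13 other BCL2 family genes and 16 apoptosome and caspase genes. Same-numbered libraries are pairs where the labels give them 1 litter (E16.5, correlation of deviations -0.05), a mouse (duodenum and ileum, 0.31) or a culture (organoids, at least 0.15).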

Additional observations from a re-analysis of the deposited data

Results flagged for a closer look

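Both results below are differences in the response to Rspondin 2 between KO and WT cultures. They passed the test with culture as a block (limma adjusted p = 0.0179 and 0.015). With all libraries and no block, neither passed the threshold used for organoids. Trp53inp1 did pass, with no block, the rule used for sorted cells (an FDR of 0.1 with a 1.5-fold change). For Trp53inp1 the dose effect in KO minus that in WT was 0.876 on the log2 scale: the 3 WT cultures were lower at 100 ng/ml and the 2 KO cultures higher. For Bcl2 the difference was -1.44: the 3 WT cultures and KO culture 7 rose with dose, and KO culture 2 was at 45.35 CPM at 5 ng/ml and 34.6 at 100 ng/ml. That low-dose library of KO culture 2 also had Lgr5 at the level of the high dose.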

How the results depend on the processing

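Of 122 alternative counts of called genes, 90 were within 1.5 times the value reported. Of 790 alternative values of single genes, 658 kept their side of the threshold. Of the rest, 49 passed it in addition, 81 no longer passed it, and 2 turned sign and crossed it. Changes of sign between values called in neither version were not counted, such as Cdkn1a in cKO cells without the 2 libraries in conflict (0.56, against -0.15 by label). Those 2 were Cdkn1a in adults with the ileum alone (-0.10) and Cdkn1a in cKO cells with the genotypes of the study's dataset (0.85). The cause was not tested for the changes that follow. At E16.5 the count of 0 became 1 in a fit of all 15 libraries, with the litter as a replicate block and with edgeR, and was 0 without any 1 pool. For E18.5 against E16.5 the 5 calls became 3 with no filter and 0 to 6 without 1 library, 0 without either E18.5 embryo. For adult against E18.5 the 2 became 1 with no filter, with the ileum alone or with the 4 libraries kept separate. The count was also 1 with edgeR and DESeq2, which kept the 4 libraries separate too. It was 1 to 2 without 1 library (1 without either duodenum or without E18.5 embryo 1). Between regions the 1 became 0 with no filter and 0 without any 1 library. With the genotypes of the dataset, 0 became 2 in cKO cells, and it was 0 without any 1 library. The 14 calls of dose in WT ranged from 8 to 15 without 1 culture (9 without WT culture 10, 8 without 30) and were 16 with the replicate block. The 9 in KO ranged from 4 (without KO culture 7) to 9 and were 10 with the block. The 1 call of KO against WT was 1 to 4 (4 without either KO culture). The 8 ligand calls were 4 to 13 (4 without WT culture 10 or 30, 13 without KO culture 2) and 16 with the block. The 0 interaction calls became 1 at an FDR of 0.1 with a 1.5-fold limit, 2 with the block and 0 to 1 without 1 culture (1 without KO culture 7). Leaving out a library often left 1 in a group, which was then assumed to vary like the others. Same-numbered libraries of E16.5 and E18.5, and of the Cre groups, share only a number (correlations -0.04, and 0.20 and 0.48), and the block left the counts at 5 and 0. Blocks by mouse or number changed no other count. Phlda3 in sorted cells rested on 1 to 14 reads a library, which limits it.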
